A study of Drosophila melanogaster with 12 samples.

Results

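The serpins described here are 9 protease-inhibitor genes with transcripts in the fat body of Drosophila melanogaster larvae: Spn42Da, Spn42Db, Spn42Dc, Spn43Ab, Spn43Ad, Spn27A, Spn28Dc, Spn55B and Spn77Ba. They were taken by name from a table of transcript abundances (TPM, reads per transcript length scaled to the same total in every library). They are 9 of the 28 serpin genes in that table and 9 of 17139 genes in all. They were chosen by their TPM in this tissue and in the comparison below, so those values are given as a description, without a test. Fat bodies came from larvae 96 hours after egg laying, in 6 libraries of r4-Gal4 driving TFAM RNAi and 6 control libraries, in which r4-Gal4 was crossed to wild type. All 12 libraries therefore carry the r4-Gal4 driver, which is active mainly in the larval fat body, and per the labels the controls carry no hairpin. The labels do not name the hairpin line or say whether the replicates came from separate cultures, so the spread between libraries may be partly technical. TFAM coats the mitochondrial genome and helps to start its transcription.

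Serpins are suicide inhibitors. A target protease cuts an exposed reactive centre loop and is then trapped in a distorted complex, so the sequence of the loop sets which proteases are caught. In insects the fat body releases serpins into the haemolymph, where they hold back the serine protease cascades that activate the Toll receptor and the prophenoloxidases of melanization.

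TFAM itself, the target of the RNAi, had 24.2 ± 1.92 TPM in TFAM RNAi and 91.9 ± 8.21 TPM in control libraries (SD, n = 6 each), without overlap. Libraries correlated at 0.932 to 0.984 within TFAM RNAi and at 0.905 to 0.980 within control (Pearson r across genes of log2 values). The summed level of 7 fat body markers was 54990 to 90770 TPM in TFAM RNAi and 36720 to 96140 TPM in control libraries. Of 6 tested, 1 was called, Fbp2, which was higher (2089 ± 1119 TPM in TFAM RNAi and 142 ± 118 TPM in control; SD, n = 6 each; limma adjusted p = 2.8e-04, no overlap). Fbp1 alone of these 7 averaged under 1 TPM, at 0.858 TPM in TFAM RNAi and 0.449 TPM in control libraries. Markers of other tissues were present in both groups. In TFAM RNAi and control libraries, in this order, muscle markers summed to 339 to 896 and 231 to 2828 TPM, gonad markers to 48.9 to 101 and 30.2 to 162 TPM, and neuron markers to 28.9 to 35.4 and 22.5 to 29.1 TPM. Salivary gland markers summed to 1.34 to 1026 TPM in TFAM RNAi, where replicate 3 was highest, and to 1.90 to 3.93 TPM in control libraries. Of these lists 1 tested gene was called, the neuron marker Syt1 (higher), and in the gut list betaTry (higher). The 10 haemocyte markers summed to 54.7 to 106 TPM in TFAM RNAi and 108 to 289 TPM in control libraries. Of 7 tested, 1 was lower, Pxn (5.28 ± 1.37 TPM in TFAM RNAi and 136 ± 71.8 TPM in control; SD, n = 6 each), and without Pxn the other 9 summed to 50.1 to 99.5 TPM in TFAM RNAi and 34.8 to 97.2 TPM in control libraries. The crystal cell marker lz was below 1 TPM in every library, but PPO1 and PPO2 of the same list were not. PPO1 had 10.6 to 34.2 TPM in TFAM RNAi and 4.95 to 26.4 TPM in control libraries. PPO2 had 12.1 to 36.65 TPM in TFAM RNAi and 6.15 to 30.25 TPM in control libraries. The 3 Malpighian tubule markers summed to 329 to 636 TPM in TFAM RNAi and 687 to 1055 TPM in control libraries, and 1 of them, Uro, was lower (360 ± 104 TPM in TFAM RNAi and 799 ± 129 TPM in control; SD, n = 6 each). The part of these tissues in the serpin levels was not tested, except where a value is given below.

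The 3 members of the 42D cluster were higher in TFAM RNAi fat bodies, by 1.28 to 1.83 times, and the 6 others were lower, at 0.156 to 0.772 times the control mean. Their libraries did not overlap for 7 of the 9 genes, with Spn55B and Spn77Ba the exceptions. Over all 9951 tested genes 13.3% were without overlap, 3.56% higher and 9.76% lower. All 9 were among the genes called by limma at an adjusted p under 0.05, which were 19.6% of the tested genes, 5.75% higher and 13.8% lower. As the choice of genes used this contrast, nothing is read from either count. Over all tested genes 572 were called higher and 1377 lower; quantile normalization gave 961 and 1075, and a replicate block 1344 and 1168. In whole fat bodies, fewer expressing cells and less RNA per cell cannot be told apart.

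**Figure D1:**
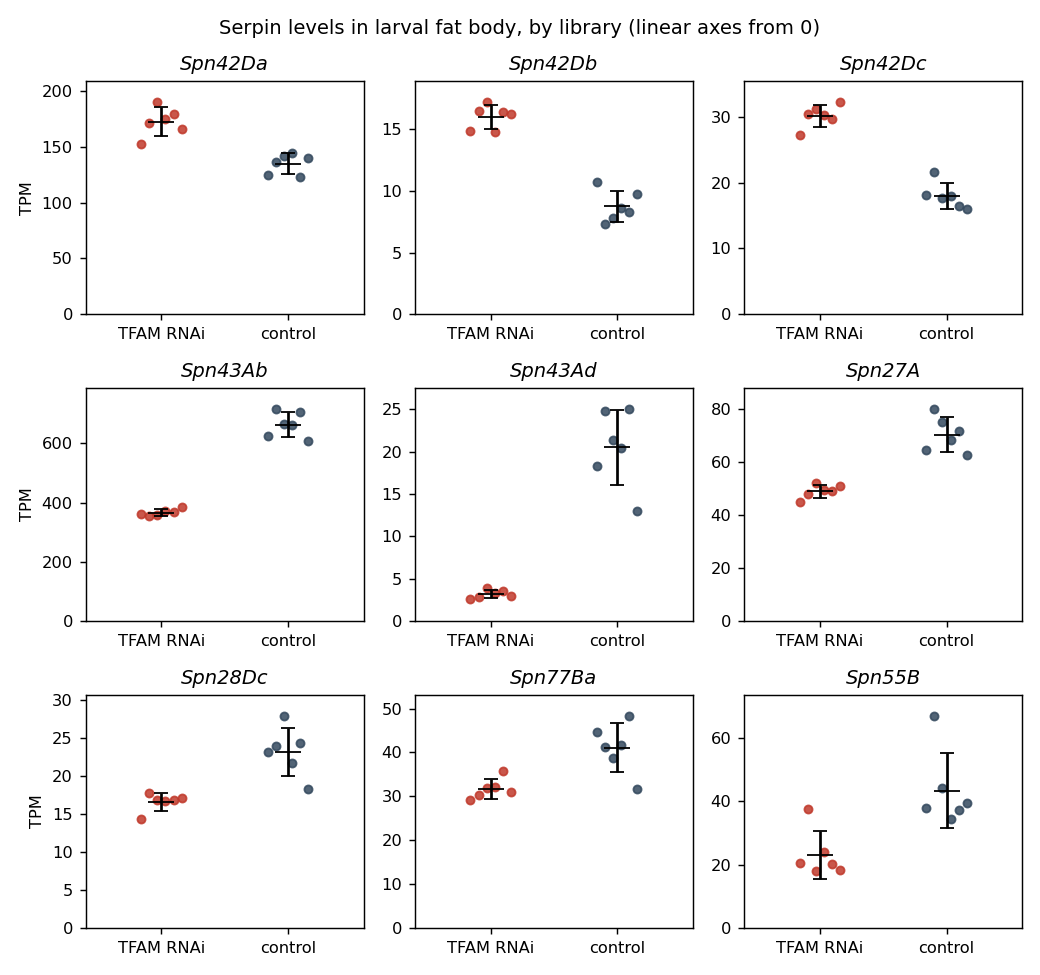
Level of each of the 9 serpin genes in TPM (linear vertical axes starting at 0) in 6 TFAM RNAi libraries, in red, and 6 control libraries, in grey-blue; each point is 1 library, the bar is the mean and the whiskers are 1 SD. The 3 genes of the 42D cluster lie higher in TFAM RNAi, the other 6 lie lower, and the groups overlap for Spn77Ba and Spn55B.

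Spn43Ab was the most abundant serpin in both groups. It had 354 to 386 TPM (median 364) in TFAM RNAi and 608 to 716 TPM (median 663) in control libraries. It ranked 370th of the 9951 tested genes by mean TPM in TFAM RNAi and 258th in control. The highest TFAM RNAi library lay far below the lowest control, and the spread within TFAM RNAi was narrow (366 ± 11.8 TPM, against 664 ± 42.95 TPM in control; SD, n = 6 each). The log2 fold change was −0.85 (SE 0.05); here and below it is taken on log2(TPM + 1), with TFAM RNAi on top.

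Spn43Ad, whose gene lies next to Spn43Ab, differed the most of the 9. It had 2.61 to 3.93 TPM (median 3.16) in TFAM RNAi and 13.02 to 25.03 TPM (median 20.9) in control libraries. The TFAM RNAi mean was 0.156 times that of control (3.21 ± 0.481 TPM in TFAM RNAi and 20.5 ± 4.47 TPM in control; SD, n = 6 each). Its log2 fold change of −2.33 (SE 0.15) understates this ratio, because the added pseudocount of 1 TPM weighs on low values. The rank of Spn43Ad among all tested genes was 7859th in TFAM RNAi and 3491st in control. Within each library Spn43Ab stood at 90.97 to 138 times Spn43Ad in TFAM RNAi and at 28.3 to 46.7 times in control, so the neighbours did not keep their proportion.

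The third expressed gene of the 43A cluster is necrotic (nec), a serpin whose loss leaves the Toll pathway active without infection. It was not among the 9. It had 54.6 to 85.8 TPM (median 75.8) in TFAM RNAi and 111 to 159 TPM (median 124) in control libraries, and fell with a log2 fold change of −0.79 (SE 0.12, limma adjusted p = 4.3e-04, all 6 TFAM RNAi libraries below all controls). The fourth gene, Spn43Aa, averaged 0.139 TPM in TFAM RNAi and 0.116 TPM in control libraries. The gene prickle (pk) spans part of this cluster in RefSeq and averaged 0.345 TPM in TFAM RNAi and 0.530 TPM in control. The 4 serpin genes of the 43A cluster together had 443 ± 17.3 TPM in TFAM RNAi and 812 ± 53.3 TPM in control libraries (SD, n = 6 each).

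No tested gene flanking the 43A cluster was called lower, where 13.8% of all tested genes were. Nothing is read from so few genes. Cyp9b1, a cytochrome P450 gene before it in map order, had 33.0 ± 3.46 TPM in TFAM RNAi and 28.9 ± 2.32 TPM in control libraries (SD, n = 6 each) and was not called (limma adjusted p = 0.18). Its neighbour Cyp9b2 rose, at 93.6 ± 19.4 TPM in TFAM RNAi and 35.5 ± 11.2 TPM in control (log2 fold change 1.41, SE 0.21, limma adjusted p = 3e-04). On the far side CG11060 had 2.00 ± 0.725 TPM in TFAM RNAi and 1.20 ± 1.06 TPM in control libraries (SD, n = 6 each) and was not called (limma adjusted p = 0.26). These flanking genes were looked up after the serpin values were known.

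**Figure D2:**
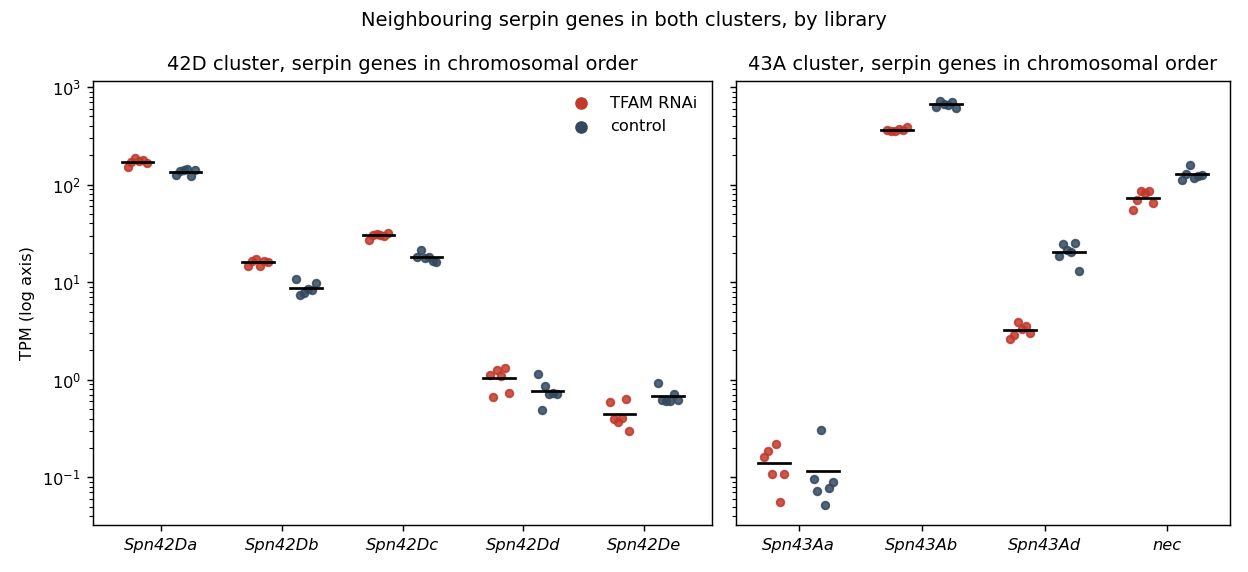
Levels in TPM (log axis) of the serpin genes of the 42D and 43A clusters in chromosomal order, TFAM RNAi libraries in red to the left of control libraries in grey-blue; points are libraries and bars are means. Spn42Da, Spn42Db and Spn42Dc lie higher in TFAM RNAi while Spn43Ab, Spn43Ad and nec lie lower, and Spn42Dd, Spn42De and Spn43Aa lie near or below 1 TPM.

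In the 42D cluster Spn42Da was the most abundant gene. Spn42Da is known for alternative splicing that exchanges the reactive centre loop, and for an isoform that inhibits furin-type proprotein convertases. It had 152 to 190 TPM (median 173) in TFAM RNAi and 123 to 144 TPM (median 138) in control libraries. Every TFAM RNAi library lay above every control, although the lowest TFAM RNAi library, replicate 3, came close to the highest control. The log2 fold change was 0.35 (SE 0.07).

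Spn42Db, the next gene, had 14.8 to 17.2 TPM (median 16.3) in TFAM RNAi and 7.32 to 10.7 TPM (median 8.45) in control libraries. Its log2 fold change was 0.81 (SE 0.10). Spn42Dc had 27.3 to 32.2 TPM (median 30.3) in TFAM RNAi and 16.0 to 21.6 TPM (median 17.8) in control libraries, with a log2 fold change of 0.72 (SE 0.08). Both genes were without overlap between the groups. The last genes of the cluster were hardly detected: Spn42Dd averaged 1.03 TPM in TFAM RNAi and 0.773 TPM in control, and Spn42De 0.448 TPM in TFAM RNAi and 0.682 TPM in control. In RefSeq the end of Spn42Dc overlaps Spn42Dd, so reads from the shared stretch could be assigned to either, and this was not tested.

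No tested gene bordering the 42D cluster was called higher, where 5.75% of all tested genes were. With so few genes nothing is read from this. The actin-binding coronin gene coro fell, with 23.0 ± 3.99 TPM in TFAM RNAi and 30.9 ± 4.05 TPM in control libraries (log2 fold change −0.42, SE 0.13, limma adjusted p = 0.035). CG9447, between coro and Spn42Da, had 1.37 ± 0.472 TPM in TFAM RNAi and 1.42 ± 0.584 TPM in control libraries (SD, n = 6 each; limma adjusted p = 0.96). On the other side CG30158 averaged 0.0522 TPM in TFAM RNAi and 0.0380 TPM in control, and CG3358 had 22.5 ± 1.34 TPM in TFAM RNAi and 20.8 ± 2.00 TPM in control (SD, n = 6 each; limma adjusted p = 0.39). The 5 serpins of the cluster summed to 220 ± 14.5 TPM in TFAM RNAi and 163 ± 8.88 TPM in control. Within a library the 43A serpins stood at 1.86 to 2.13 times the 42D serpins in TFAM RNAi and at 4.46 to 5.74 times in control. This ratio is taken inside each library, so a single scale factor per library does not change it. Spn43Ab, Spn43Ad and the 3 members of the 42D cluster in it were chosen with this contrast known. The ratio is therefore a description only. Quantile normalization can change it, and the ratio was not taken under that alternative.

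The table holds 11 RefSeq transcripts of Spn42Da. In the Ensembl annotation the gene likewise has 11 coding transcripts, with 8 different coding regions of 374 to 424 residues, 4 alternative last coding exons and 2 alternative first ones. In a serpin the loop lies near the end of the protein. The file gives no link from a RefSeq transcript to an isoform name, so the transcripts are named by accession, and none is assigned to a loop. They overlap in sequence, so the split of reads between them is an estimate of the quantifier.

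NM_206034 was the leading transcript, with 73.1 to 95.0 TPM in TFAM RNAi and 49.2 to 70.9 TPM in control libraries. NM_206039 followed, with 36.9 to 43.01 TPM in TFAM RNAi and 20.3 to 29.1 TPM in control. For these 2 transcripts the groups did not overlap, and the log2 fold changes were 0.53 (SE 0.09) and 0.59 (SE 0.09). Together they held 125 ± 9.30 TPM in TFAM RNAi and 85.4 ± 7.69 TPM in control libraries (SD, n = 6 each). The other 9 transcripts summed to 46.9 ± 5.08 TPM in TFAM RNAi and 49.4 ± 3.53 TPM in control, with overlap between the groups. In net terms the higher level of the gene thus lay in its 2 leading transcripts. Among the other 9, 2 also had higher means in TFAM RNAi, with overlap, and the rest had lower ones. These were NM_206038 (10.4 TPM in TFAM RNAi and 8.24 TPM in control) and NM_206037 (4.07 TPM in TFAM RNAi and 3.02 TPM in control).

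The make-up of Spn42Da differed accordingly. The 2 leading transcripts made up 69.7 to 75.4% of the gene in TFAM RNAi and 60.3 to 66.9% in control libraries, without overlap (72.8 ± 1.86% and 63.3 ± 2.30%; SD, n = 6 each). NM_206033, the third transcript, had 11.6 to 13.6 TPM in TFAM RNAi and 11.4 to 17.7 TPM in control, and its share was 7.07 ± 0.753% in TFAM RNAi and 10.4 ± 1.99% in control, without overlap in the shares. NM_165496 had 0.803 to 1.18 TPM in TFAM RNAi and 1.55 to 2.18 TPM in control libraries, again without overlap. Its log2 fold change was −0.51 (SE 0.13), the opposite direction to the gene. NM_165496 was not called without the 4 libraries richest in other-tissue markers (−0.53) or under the replicate block (−0.48). Its levels lie near the filter and the pseudocount, both 1 TPM, and their counting error is unknown. The remaining 7 transcripts, among them NM_206036 with 7.00 TPM in TFAM RNAi and 7.31 TPM in control, overlapped between the groups in level, although the shares of NM_080216 and NM_206035 were also lower in TFAM RNAi without overlap. At a limma adjusted p under 0.05 over all 15248 tested transcripts, where 17.3% were called (5.47% higher and 11.8% lower) and 11.5% did not overlap (3.20% higher and 8.27% lower), 2 Spn42Da transcripts were called higher, 1 lower and 7 not, and 1 was not tested; as these transcripts were part of the choice, nothing is read from this count. The authors' deposited table gives coefficients of 0.37 for NM_206034, 0.42 for NM_206039 and −0.61 for NM_165496 on the natural log scale, or 1.44, 1.52 and 0.542 times.

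**Figure D3:**
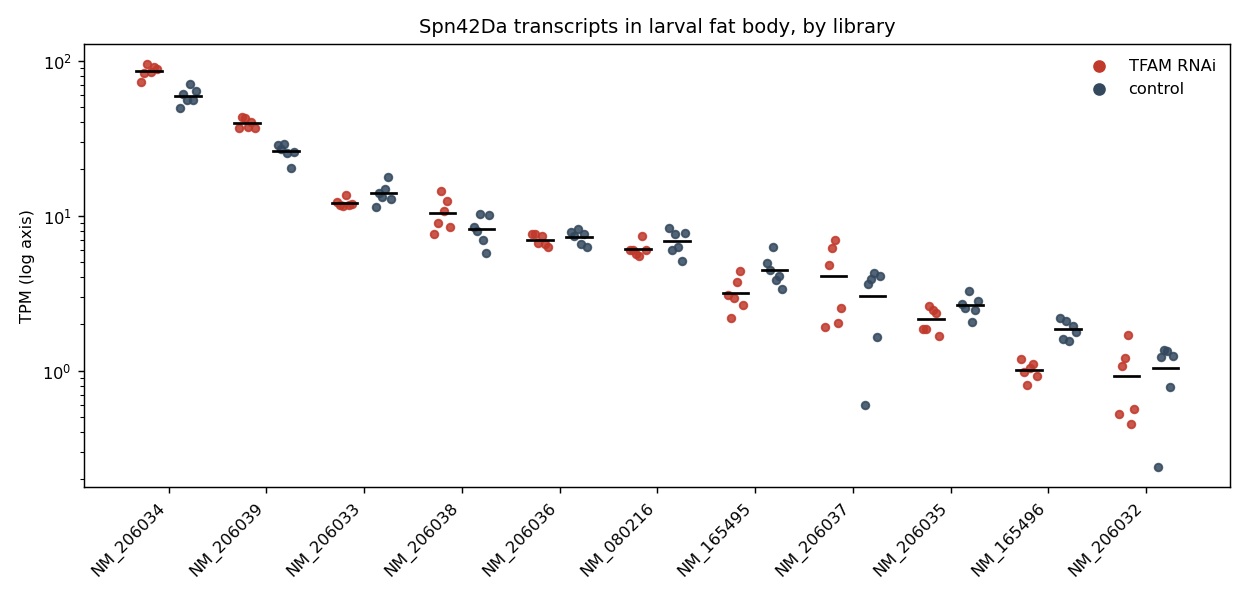
Level of the 11 Spn42Da transcripts in TPM (log axis), ordered by mean level, with TFAM RNAi libraries in red to the left of control libraries in grey-blue; points are libraries and bars are means. NM_206034 and NM_206039 lie higher in TFAM RNAi without overlap, and NM_165496 lies lower.

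The split of the other members with several transcripts was less clear. The 2 transcripts of Spn42Db made up 56.6 ± 6.42% and 43.4 ± 6.42% of the gene in TFAM RNAi, against 52.4 ± 9.86% and 47.6 ± 9.86% in control libraries (SD, n = 6 each), with overlap. In the Ensembl annotation this gene encodes 2 proteins, of 286 and 388 residues. Nearly all of Spn42Dc came from NM_136401, at 98.8 ± 2.28% in TFAM RNAi and 96.7 ± 5.15% in control (SD, n = 6 each). The minor Spn27A transcript NM_001273214 made up 2.81 ± 0.651% in TFAM RNAi and 4.25 ± 0.466% in control libraries (SD, n = 6 each), and 5 of 6 TFAM RNAi libraries lay below all controls. In the Ensembl annotation both Spn27A transcripts have the same coding region. Among the 3 Spn77Ba transcripts NM_140948 had 1.70 to 6.02 TPM in TFAM RNAi and 0.0101 to 4.32 TPM in control libraries. The main one, NM_168844, made up 80.3 ± 4.10% of the gene in TFAM RNAi and 85.6 ± 3.07% in control (SD, n = 6 each), and 4 of 6 TFAM RNAi shares lay below all controls.

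Spn27A, Spn28Dc and Spn77Ba are the members best known for restraining melanization. Spn27A limits prophenoloxidase activation in the haemolymph and, in the embryo, the Easter protease of dorsoventral patterning. It had 44.8 to 51.9 TPM (median 49.2) in TFAM RNAi and 62.4 to 79.8 TPM (median 69.8) in control libraries. The groups did not overlap, and the log2 fold change was −0.51 (SE 0.07). In RefSeq Spn27A overlaps CG34310, which fell as well, with 116 ± 11.0 TPM in TFAM RNAi and 143 ± 11.7 TPM in control libraries (log2 fold change −0.31, SE 0.08, limma adjusted p = 0.012). Whether the authors' quantification used the strand of the directional libraries is not given in the sources used here, so reads from the shared stretch may be assigned to either gene.

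Spn28Dc is known for its part in melanization after wounding. It had 14.3 to 17.8 TPM (median 16.8) in TFAM RNAi and 18.3 to 27.9 TPM (median 23.5) in control libraries. The groups did not overlap, but the lowest control, replicate 8, was close to the TFAM RNAi range. The log2 fold change was −0.45 (SE 0.10). Spn77Ba restrains melanization of the trachea. It had 29.2 to 35.8 TPM (median 31.4) in TFAM RNAi and 31.8 to 48.3 TPM (median 41.5) in control libraries. The groups overlapped, since control replicate 8 lay inside the TFAM RNAi range, and 3 of 6 TFAM RNAi libraries lay below all controls. The log2 fold change of Spn77Ba was −0.35 (SE 0.10); it was −0.19 under quantile normalization and −0.35 under median-ratio scaling, and in neither was the gene called. Nor was it called without the 2 libraries richest in gut markers (−0.34). Its neighbours Spn77Bb and Spn77Bc averaged under 0.2 TPM in both groups. Markers of epidermis and trachea summed to 225 to 3193 TPM in TFAM RNAi and 242 to 6883 TPM in control libraries, and 0 of these 7 were called.

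Spn55B varied most within its groups. It had 17.9 to 37.6 TPM (median 20.3) in TFAM RNAi and 34.4 to 66.9 TPM (median 38.7) in control libraries. TFAM RNAi replicate 4 and control replicate 3 stood apart at the top of their groups, and TFAM RNAi replicate 4 reached into the control range. These were also the libraries of their groups richest in gut markers. The 9 gut markers summed to 2866 TPM in TFAM RNAi replicate 4, against 190 to 1525 TPM in the other TFAM RNAi libraries, and to 4295 TPM in control replicate 3, against 373 to 1080 TPM in the other controls. Without both libraries, an alternative added after the values were seen, Spn55B had 20.1 ± 2.42 TPM in TFAM RNAi and 38.7 ± 3.57 TPM in control libraries (SD, n = 5 each), without overlap. The log2 fold change was −0.90 (SE 0.20) with all libraries and −0.91 (SE 0.10) without those 2. It stayed at −0.90 without the 4 libraries richest in all other-tissue markers, where Spn55B was no longer called by limma. Those 4 were TFAM RNAi replicates 3 and 7 and control replicates 2 and 8, so TFAM RNAi replicate 4 and control replicate 3 were kept.

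**Figure D4:**
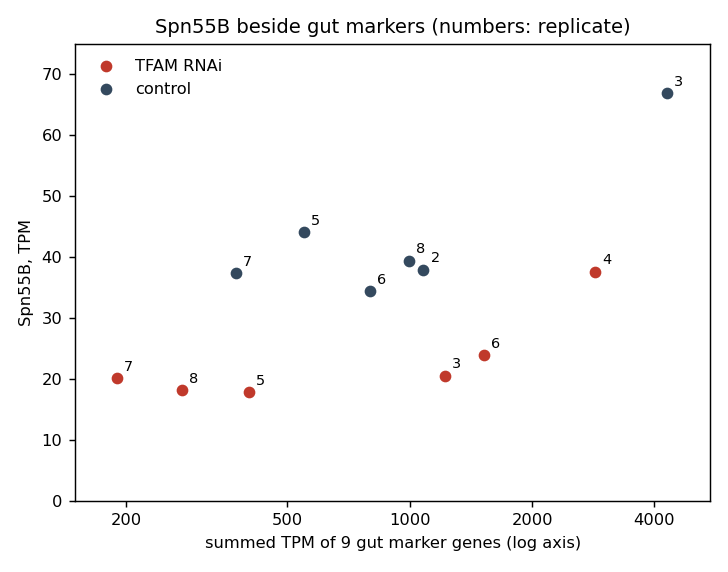
Spn55B in TPM against the summed TPM of 9 gut marker genes (log axis) in each library, TFAM RNAi in red and control in grey-blue, with the replicate number beside each point. TFAM RNAi replicate 4 and control replicate 3 have the highest gut markers and the highest Spn55B of their groups, and at lower gut markers all TFAM RNAi points lie below all control points.

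Ordered by mean level, the 9 genes ran Spn43Ab, Spn42Da, Spn27A, Spn77Ba, Spn42Dc, Spn55B, Spn28Dc, Spn42Db and Spn43Ad in TFAM RNAi. In control the order was Spn43Ab, Spn42Da, Spn27A, Spn55B, Spn77Ba, Spn28Dc, Spn43Ad, Spn42Dc and Spn42Db. Only genes adjacent in these orders were compared for overlap of their library ranges. In TFAM RNAi adjacent ranges overlapped between Spn77Ba and Spn42Dc, between Spn42Dc and Spn55B, and between Spn28Dc and Spn42Db. In control adjacent ranges overlapped between Spn27A and Spn55B, Spn55B and Spn77Ba, Spn28Dc and Spn43Ad, and Spn43Ad and Spn42Dc. Spn42Dc stood at 7.94 to 10.8 times Spn43Ad in TFAM RNAi libraries, against 0.656 to 1.23 times in controls.

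In the family of 28 serpins 12 genes passed the filter of a mean of 1 TPM, the 9 described above and nec, Spn88Eb and Spn88Ea. The 16 others were not tested and averaged at most 0.903 TPM. Among the 3 tested genes outside the 9, 1 fell (nec) and 0 rose, where 13.8% of all tested genes were called lower and 5.75% higher. Their median log2 fold change of −0.66 is the value of Spn88Ea alone, which was not called. The median over all tested genes was 0.01, and nothing is read from a list of 3. Spn88Eb, second to Spn43Ab among all serpins by mean in both groups, had 131 to 187 TPM (median 180) in TFAM RNAi and 147 to 193 TPM (median 159) in control libraries. It was not called (log2 fold change 0.04, SE 0.10, limma adjusted p = 0.82). Spn88Ea, a negative regulator of Toll signalling, had 4.32 ± 1.51 TPM in TFAM RNAi and 7.78 ± 3.45 TPM in control libraries (SD, n = 6 each). It was not called (log2 fold change −0.66, SE 0.28, limma adjusted p = 0.13). In RefSeq Spn88Ea overlaps CG42542, which averaged 30.4 TPM over all libraries. Reads from a shared stretch could be assigned to either gene, and this was not tested.

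All 28 serpins together had 861 to 997 TPM in TFAM RNAi and 1241 to 1418 TPM in control libraries. Their sum was 962 ± 51.5 TPM in TFAM RNAi and 1330 ± 72.3 TPM in control (SD, n = 6 each), or 0.724 times, without overlap. Without Spn43Ab the sums were 596 ± 50.5 TPM in TFAM RNAi and 666 ± 43.4 TPM in control, and the groups overlapped. Most of the lower total was therefore Spn43Ab. Its share of the serpin TPM was 38.2 ± 2.27% in TFAM RNAi and 49.9 ± 1.75% in control (SD, n = 6 each). Spn42Da took 17.9 ± 0.636% in TFAM RNAi and 10.2 ± 0.802% in control libraries, again without overlap. The shares of Spn27A (5.09 ± 0.140% and 5.27 ± 0.226%), Spn28Dc (1.72 ± 0.070% and 1.74 ± 0.189%) and Spn77Ba (3.30 ± 0.172% and 3.09 ± 0.438%), each given for TFAM RNAi and then control, overlapped between the groups. The 43A serpins together held 46.1 ± 1.55% in TFAM RNAi and 61.0 ± 1.36% in control, and the 42D serpins 22.8 ± 0.637% in TFAM RNAi and 12.3 ± 0.878% in control. Spn88Eb held 17.9 ± 1.35% in TFAM RNAi and 12.61 ± 1.499% in control (SD, n = 6 each), without overlap.

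**Figure D5:**
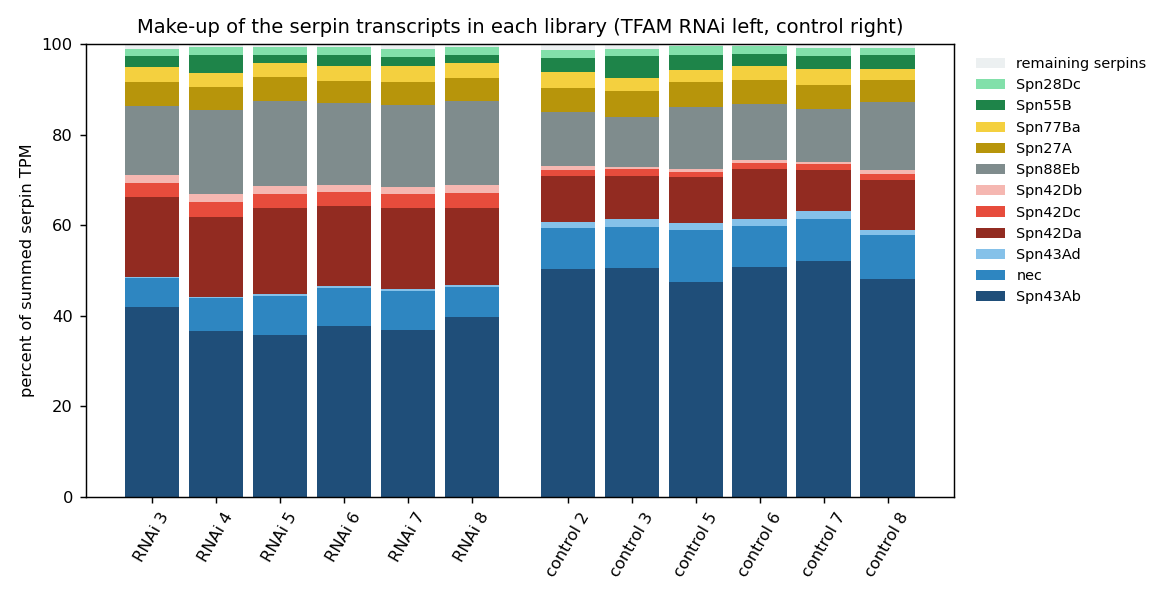
Share of each serpin in the summed TPM of all 28 serpin genes, in percent, as 1 stacked bar per library, with 6 TFAM RNAi libraries on the left and 6 control libraries on the right. The blue 43A segments (Spn43Ab, nec, Spn43Ad) end at 44.2 to 48.6% in TFAM RNAi and at 59.0 to 63.2% in control, and the red 42D segments above them are taller in TFAM RNAi.

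Genes of the cascades that such serpins act on changed in both directions. Of 12 cascade proteases 9 were tested, of which 2 rose and 3 fell, with a median log2 fold change of −0.17. Over all tested genes 5.75% were called higher and 13.8% lower, with a median of 0.01. The clip-domain protease gene grass, which acts early in the Toll cascade, fell to 109 ± 13.7 TPM in TFAM RNAi, against 521 ± 41.8 TPM in control libraries (log2 fold change −2.26, SE 0.09, limma adjusted p = 4.1e-09, no overlap). Persephone (psh), a protease that senses microbial proteases, fell to 33.0 ± 2.27 TPM in TFAM RNAi, against 45.4 ± 4.54 TPM in control (log2 fold change −0.45, SE 0.08, limma adjusted p = 0.0012). SPE, which cuts the Toll ligand Spätzle, rose to 63.8 ± 7.599 TPM in TFAM RNAi, against 38.7 ± 5.92 TPM in control (log2 fold change 0.71, SE 0.11, limma adjusted p = 3.8e-04). Hayan was also called lower (log2 fold change −0.34) and Sp7 higher (0.36); both are named after their values were seen. Hayan was not called without the 2 libraries richest in gut markers (−0.33) or under quantile normalization (−0.13). Sp7 was not called under median-ratio scaling (0.37) or without the 4 libraries richest in other-tissue markers (0.31).

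Of 9 melanization genes 7 were tested, and 2 rose and 2 fell, with a median log2 fold change of 0.69. Without control replicate 2, and also under the replicate block, 4 rose and 2 fell, with medians of 1.02 and 1.08. The shares over all tested genes in the full data were 5.75% higher and 13.8% lower, with a median of 0.01. The dopachrome-conversion enzyme genes yellow-f (7.33 ± 0.679 TPM in TFAM RNAi and 2.47 ± 0.310 TPM in control) and yellow-f2 (57.7 ± 1.68 TPM in TFAM RNAi and 27.7 ± 7.19 TPM in control) rose, without overlap (log2 fold changes 1.26 and 1.07, limma adjusted p = 1.8e-06 and 1.5e-04); yellow-f2 is named after its values were seen. Punch (Pu), the GTP cyclohydrolase that starts pteridine cofactor synthesis, fell to 39.1 ± 6.62 TPM in TFAM RNAi, against 236 ± 84.9 TPM in control libraries (log2 fold change −2.49, SE 0.26, limma adjusted p = 1.6e-05). Henna (Hn), the phenylalanine hydroxylase, fell to 120.0 ± 10.3 TPM in TFAM RNAi, against 193 ± 21.7 TPM in control (log2 fold change −0.68, SE 0.08, limma adjusted p = 6.7e-05). The prophenoloxidase genes PPO1 (17.7 ± 8.73 TPM in TFAM RNAi and 10.5 ± 8.05 TPM in control) and PPO2 (19.9 ± 9.08 TPM in TFAM RNAi and 12.8 ± 9.08 TPM in control), both made by crystal cells of the haemolymph, were not called (log2 fold changes 0.80 and 0.69, limma adjusted p = 0.18 and 0.24). Both were called higher without control replicate 2, their highest control (1.096 and 0.97, limma adjusted p = 0.017 and 0.032), and under the replicate block (1.21 and 1.08, limma adjusted p = 0.027 and 0.037). The block compares only replicate numbers found in both groups, so control replicate 2 adds nothing to its fold changes. These 2 alternatives are therefore not independent.

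Of the 3 furin-type convertase genes 2 were tested and 0 called. Fur1 had 17.9 ± 6.14 TPM in TFAM RNAi and 14.5 ± 5.37 TPM in control libraries (limma adjusted p = 0.60), and Fur2 had 20.8 ± 5.41 TPM in TFAM RNAi and 23.9 ± 5.78 TPM in control (limma adjusted p = 0.56; SD, n = 6 each). At an unadjusted p under 0.05 the count by limma, the only tool run, was also 0. Of 12 core genes of the Toll pathway, all tested, 2 rose and 4 fell, with a median log2 fold change of −0.23. The shares over all tested genes were 5.75% higher and 13.8% lower, with a median of 0.01. The recognition protein gene GNBP1 fell to 17.2 ± 1.501 TPM in TFAM RNAi, against 33.0 ± 5.47 TPM in control (log2 fold change −0.89, SE 0.11, limma adjusted p = 5.8e-05). PGRP-SD, which helps to recognise bacterial peptidoglycan, rose to 138 ± 20.1 TPM in TFAM RNAi, against 77.3 ± 14.9 TPM in control (log2 fold change 0.83, SE 0.13, limma adjusted p = 4.3e-04). The kinase gene pelle (pll) fell to 8.82 ± 0.691 TPM in TFAM RNAi, against 12.9 ± 1.32 TPM in control (log2 fold change −0.50, SE 0.09, limma adjusted p = 0.0013); it was not called under quantile normalization (−0.45, limma adjusted p = 0.059). GNBP3 was also called higher (log2 fold change 0.41), and PGRP-SA (−0.48) and dl (−0.61) lower; these 3 are named after their values were seen. Without the 2 libraries richest in gut markers neither GNBP3 (0.38) nor PGRP-SA (−0.43) was called. PGRP-SA was also not called under median-ratio scaling (−0.47) or quantile normalization (−0.28), and dl was not called under the replicate block (−0.64) or without the 4 libraries richest in other-tissue markers (−0.57).

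Within groups the members varied together only in part. After subtraction of the group means, 26 of the 36 pairs among the 9 genes had a positive Pearson r over the 12 libraries and 10 a negative one, with a median of 0.29. The highest was 0.82, between Spn43Ad and Spn27A, which lie apart in the genome, and the lowest −0.73, between Spn42Db and Spn43Ab. These values are descriptions over 12 libraries that also share their tissue makeup and scaling. By the same measure, among 6951 genes averaging 5 TPM or more, those most like Spn43Ab were Ance-4 (r = 0.90), CG17032 (0.88) and Gmd, a GDP-mannose dehydratase (0.87). Ance-4 had 212 ± 10.1 TPM in TFAM RNAi and 615 ± 129 TPM in control libraries, and all 3 were also lower in TFAM RNAi. Those most like Spn42Da were the lysyl-tRNA synthetase gene LysRS (0.96), the complex I subunit gene ND-75 (0.95) and CG4610 (0.92), and none of these 3 was called between the groups (limma adjusted p = 0.054, 0.55 and 0.86). LysRS, with a log2 fold change of 0.33, was called higher under 6 alternatives, at 0.33 to 0.55. Those most like Spn27A were Jasper (0.93), SH3PX1 (0.93) and CG3505 (0.92), all lower in TFAM RNAi, though Jasper (log2 fold change −0.37) was not called under quantile normalization (−0.26), under median-ratio scaling (−0.36) or without the 2 libraries richest in gut markers (−0.33). CG3505 had 79.7 ± 5.19 TPM in TFAM RNAi and 281 ± 45.3 TPM in control libraries.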

How the data were processed

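The labels describe total RNA from larval fat bodies, extracted with Trizol and made into directional libraries. The authors deposited TPM for 34213 RefSeq transcripts in 12 libraries, each summing to 1000000. Depth cannot be read from TPM and is unknown, so values carry no counting interval. They also deposited Wald coefficients on the natural log scale (slope 0.999 on the difference in mean natural-log TPM over 1498 transcripts above 50 TPM in every library). The submitters' processing notes name sleuth. Quantifier and build: not given in the sources used here. All 12 library columns were used.

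Transcripts were named by accession from a RefSeq gene table of assembly Release 6 plus ISO1 MT (34056 matched, 99.5%), which was used for names and gene order only; protein counts came from Ensembl release 115 on BDGP6. TPM were summed to 17139 genes. Genes (9951) and transcripts (15248) with a mean of at least 1 TPM were fitted with limma 3.58.1 in R 4.3.3 (lmFit, eBayes with trend) on log2(TPM + 1), TFAM RNAi against control, with no term for replicate number. Two-sided p-values were Benjamini-Hochberg adjusted and called under 0.05. The fit was tested on simulated data. Members, lists and markers were chosen with earlier results of these data known; 1 of the 54 other-tissue markers was not found by name. Named were TFAM, the 9 members, Spn42Da transcripts, nec, up to 6 called other serpins, up to 3 called genes per pathway list (others are marked where named) and the 3 genes most like each of the 3 most abundant members. The alternatives are in the closing section.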

Additional observations from a re-analysis of the deposited data

Results flagged for a closer look

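Of 78 sets of 6 libraries examined, 9 held a library far from the other 5 by Dixon's ratio of gap to range, where chance gives about 1 in 20. Spn55B stood at 37.6 TPM in TFAM RNAi replicate 4, against 17.9 to 23.9 TPM in the other TFAM RNAi libraries, and at 66.9 TPM in control replicate 3, against 34.4 to 44.2 TPM in the other controls. Spn42Dc was also highest in control replicate 3, at 21.6 TPM against 16.0 to 18.1 TPM. Spn28Dc was lowest in TFAM RNAi replicate 3, at 14.3 TPM against 16.7 to 17.8 TPM. The Spn42Da transcript NM_080216 stood at 7.39 TPM in TFAM RNAi replicate 7, against 5.51 to 6.01 TPM. Among the genes outside the 9, nec stood at 159 TPM in control replicate 5, against 111 to 128 TPM, and PGRP-SD at 176 TPM in TFAM RNAi replicate 3, against 120.0 to 137 TPM. Pu was lowest in TFAM RNAi replicate 8, at 25.8 TPM against 40.0 to 43.3 TPM, and CG17032 in TFAM RNAi replicate 4, at 78.4 TPM against 88.6 to 94.3 TPM.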

How the results depend on the processing

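The 9 serpins kept their direction under all 22 alternatives, and 194 of 198 combinations of gene and alternative kept the call. The exceptions were Spn77Ba under median-ratio scaling (log2 fold change −0.35), under quantile normalization (−0.19) and without the 2 libraries with the most gut markers (−0.34), and Spn55B without the 4 libraries richest in other-tissue markers (−0.90). When any one library was dropped all 9 stayed called, and the difference in share of the 2 leading Spn42Da transcripts lay between 8.87 and 10.2 percentage points. The number of genes called was 1949, and lay between 1637 and 2161 when any one library was dropped. The number of other serpins called was 1, lay between 1 and 2 when any one library was dropped (2 without control replicate 5), and was 2 with no filter on low values; the cause was not tested. When any one library was dropped, 4 to 6 melanization genes were called (4 in the full data), 5 to 6 cascade proteases (5) and 6 Toll genes (6). The replicate numbers 3, 5, 6, 7 and 8 occur in both groups. Same-numbered libraries deviated together at r from −0.08 to 0.62, and 2 of 5 correlated best with their own number. Whether same-numbered libraries share a batch cannot be told from these values. The replicate block compares only numbers found in both groups, so control replicate 2 and TFAM RNAi replicate 4 add nothing to its fold changes. With the replicate block 2512 genes were called, and all 9 serpins in the same direction; 6 melanization genes, 5 cascade proteases and 5 Toll genes were called; the call of NM_165496 was lost (log2 fold change −0.48), as it was without the 4 libraries richest in other-tissue markers. The uncalled fold changes of ND-75 and CG4610 changed sign: ND-75 was −0.06 and became 0.105 under quantile normalization, and CG4610 was 0.03 and lay between −0.007 and 0.07 when any one library was dropped; the cause was not tested. TPM gives no depth, so low values such as those of Spn43Ad in TFAM RNAi have an unknown counting error.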
